A study of Mus musculus with 35 samples.

Results

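Aortas of apoE-deficient mice (EKO) kept on regular chow for 22 weeks were compared with aortas of the same genotype kept on chow for 6 weeks. The comparison takes the 3 libraries titled for each duration, 6 of the 35 libraries of the series, and covers every gene that passed the filter on low values. All 6 came from C57BL/6 mice that entered the study at 8 weeks of age, so the animals were 14 weeks old in the 6-week group and 30 weeks old in the 22-week group. Age and time on diet are therefore the same variable here. EKO is the germline loss of Apoe that both groups carry. Per the labels, mice were perfused with saline, and the whole vessel down to its split into the iliac arteries was stripped of surrounding fat and snap-frozen. Wild-type (WT) mice on chow and EKO mice on the Western Diet, each with 3 libraries at 6 and 3 at 22 weeks, serve below to show where the change in EKO on chow differs. Nothing in the labels beyond the stated n says that libraries came from separate animals, so the spread behind each p-value may be partly technical.

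Apolipoprotein E is the ligand through which the liver takes up remnant lipoproteins. Mice without it carry a high plasma cholesterol even on chow and form lesions of the aortic wall slowly as they age. In such lesions, monocyte-derived macrophages take up lipoprotein cholesterol, digest it in lysosomes and become foam cells. Smooth muscle cells of the media make the contractile proteins and much of the collagen and elastin of the wall, and the outer layer borders on brown fat, nerves and lymphoid tissue.

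Apoe was between 5.37 and 11.4 in the 6-week libraries and between 11.2 and 19.5 in the 22-week libraries, against 1009 ± 294 (SD, n = 3) in WT on chow for 6 weeks. Between 11100000 and 17450000 reads stood behind each of the 6 libraries, as inferred from the step between low values. Y-linked transcripts were missing from 1 library at 6 weeks (replicate 1) and from 2 at 22 weeks (replicates 1 and 2), and a term for this left 3737 calls, against 3829 without it. Acta2, which marks smooth muscle, was 3769 or more in every library. Markers of tissue around the vessel were present too. The summed level of 15 brown adipocyte genes was 2065 to 2769 at 6 weeks and 5192 to 9686 at 22 weeks, so the 2 groups did not overlap, and none of these genes was at 0 in any library. Th, which makes the catecholamine precursor in sympathetic neurons, was 249, 1.85 and 0.343 in 6-week replicates 1 to 3 and 18.6, 83.7 and 2.1 in 22-week replicates 1 to 3. Skeletal muscle actin, Acta1, was likewise highest in 6-week replicate 1 (248, 1.97 and 8, then 68.7, 42.9 and 7.66). The neuron, skeletal muscle and epithelial lists had 0 genes called in limma and 0 at an unadjusted p under 0.05 in either direction. Levels are normalised values on the authors' scale, and differences are log2(value + 1) at 22 minus 6 weeks, ± SE, with n = 3 against 3.

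Between 6 and 22 weeks, 12 of 18 genes of lipid-loaded macrophages, 3 of 6 mast cell genes and 22 of 25 respiratory chain genes rose in the EKO aorta, while 8 of 20 contractile smooth muscle genes and 11 of 20 collagens fell. The adjusted p was under 0.05 for 3829 of 14157 genes, 27.0% of those tested, with 1885 higher (13.3%) and 1944 lower (13.7%) at 22 weeks. Library ranges did not overlap for 43.8% of genes, 22.3% higher and 21.5% lower, and the median difference over all genes was 0.003. The count fell to 1455 without 6-week replicate 3, to 2279 without 22-week replicate 3, to 2344 without 22-week replicate 1 and to 2436 in a fit of the 6 libraries alone (8.74% higher, 8.46% lower). With the mean of the brown adipocyte list as a term it was 1518, and the split moved from 49.2% to 36.9% higher, 560 higher (3.96%) against 958 lower (6.77%). With terms for brown adipocyte, sympathetic neuron, skeletal muscle and cardiac muscle genes together, 4.45% were higher and 6.59% lower.

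**Figure D1:**
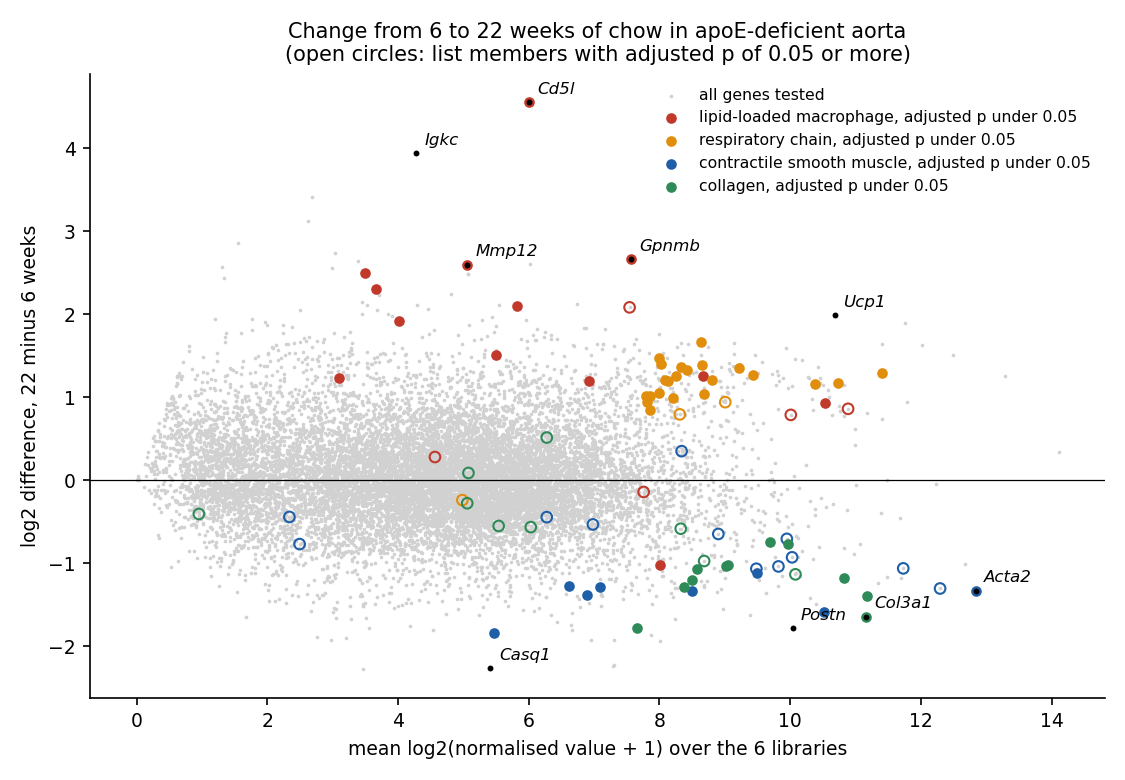
Each point is a gene, with its mean log2(value + 1) over the 6 libraries on the horizontal axis and its log2 difference, 22 minus 6 weeks, on the vertical axis. Genes of lipid-loaded macrophages and of the respiratory chain lie mostly above 0 and those of contractile smooth muscle and collagen mostly below, with Cd5l highest at 4.56.

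The largest rise belonged to Cd5l, a scavenger-receptor protein secreted by macrophages that keeps these cells alive. Its level was 12.5, 11.1 and 12.9 at 6 weeks and 334, 362 and 246 at 22 weeks, a ratio of means of 25.7 and a log2 difference of 4.56 ± 1.05 (adjusted p = 0.0035, limma). The libraries within each group lay close together and the groups were far apart. Gpnmb, a glycoprotein of lysosome-rich macrophages, went from 61.5, 95.6 and 69.1 to 466, 411 and 564 (2.67 ± 0.77, adjusted p = 0.014). Trem2, the lipid-sensing receptor of foamy macrophages, was 4.88, 5.32 and 4.06 at 6 weeks and 32.1, 22.5 and 28.3 at 22 weeks (2.31 ± 0.60, adjusted p = 0.007). Both were therefore higher in every 22-week library than in any 6-week library. The same held for Mmp12, the macrophage elastase (14.6, 16.5 and 8.05, then 77.3, 67.8 and 101), and for Atp6v0d2, a subunit of the proton pump that acidifies lysosomes (3.69, 4.11 and 3.48, then 23.3, 23.1 and 32.3). It also held for the membrane protease Adam8 (2.24 ± 0.40, adjusted p = 0.0008) and for Hk3, a hexokinase of myeloid cells (2.15 ± 0.42, adjusted p = 0.0012). The call of Gpnmb was lost without 6-week replicate 3, and that of Mmp12 without 22-week replicate 1, without 22-week replicate 3 or without 6-week replicate 3, and with the brown adipocyte term (2.93, adjusted p = 0.054).

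Of the 18 genes of lipid-loaded macrophages 12 rose, where 13.3% of all genes did, and 1 fell, the tetraspanin Cd9. The list's median was 1.38, against 0.003 over all genes. Besides those named, Lgals3 (galectin-3) went from 27.8, 32.2 and 20.5 to 131, 103 and 116 (2.10 ± 0.49). The integrin Itgax, known as CD11c, averaged 7.39 ± 0.867 (SD) at 6 weeks and 30.9 ± 5.82 at 22 weeks (1.91 ± 0.56), a call lost without 22-week replicate 1 or 6-week replicate 3. Spp1, which encodes osteopontin, did not pass although its ranges were apart (104, 141 and 49, then 572, 354 and 278; 2.08 ± 1.24, adjusted p = 0.21). In the fit of the 6 libraries alone it passed (adjusted p = 0.03). Among 18 general macrophage markers 9 rose and 0 fell, with a median of 1.09, 3 of the 9 being the chains of the complement protein C1q. The endosomal glycoprotein Cd68 was 14.1, 20.8 and 16.1, then 85.1, 48.3 and 63.8 (1.87 ± 0.45, adjusted p = 0.0044). Lysozyme, Lyz2, was 198, 305 and 244, then 921, 716 and 639 (1.61 ± 0.45, adjusted p = 0.011). In bulk tissue, more cells of a type and more RNA per cell cannot be told apart. Only 1 of 12 markers of resident adventitial macrophages rose, the lectin Cd209f (1.41 ± 0.44, adjusted p = 0.02), against 13.3% of all genes. Its call was lost without 22-week replicate 1, 6-week replicate 1 or 6-week replicate 3, in the fit of the 6 libraries alone (adjusted p = 0.074) and with the brown adipocyte term (0.80, adjusted p = 0.28). Lyve1, a defining marker of these cells, was 25.9, 69 and 51.2 at 6 weeks and 36.1, 22.3 and 51.5 at 22 weeks, with the groups overlapping. Without 6-week replicate 3 the lipid-loaded list had 6 genes higher and without 22-week replicate 1 the macrophage list had 4, while the brown adipocyte term left 8 and 6, with medians of 1.35 and 1.15.

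Of 26 lysosome genes 10 rose and 1 fell, against 13.3% and 13.7% of all genes, with a median of 0.28. Without 22-week replicate 1, 5 rose, and the fit of the 6 libraries alone called 5 as well. The protease cathepsin D, Ctsd, was 1065, 1255 and 928 at 6 weeks and 2183, 1763 and 2260.0 at 22 weeks (0.94 ± 0.20, adjusted p = 0.002). Ctsz, another cathepsin, averaged 190.3 ± 29.2 and 426 ± 73.5 (1.15 ± 0.21, adjusted p = 0.00096), and Psap, the precursor of the saposins that help degrade sphingolipids, 1752 ± 209.6 and 3074 ± 313 (0.81 ± 0.19). Asah1, the acid ceramidase, fell by 0.43 ± 0.14 (98.7, 117 and 129, then 86.8, 82.6 and 84.1; adjusted p = 0.026), a call lost on leaving out any library except 6-week replicate 1. Where 13.3% of all genes rose, 4 did among 11 targets of LXR, the nuclear receptor activated by oxysterols. They included the cholesterol exporter Abcg1 (31.6, 26 and 21.2, then 107, 55.4 and 72.2; 1.50 ± 0.34, adjusted p = 0.0033) and Nr1h3, which encodes LXR alpha (1.43 ± 0.28). The phospholipid transfer protein Pltp rose as well (1.06 ± 0.24). Abca1, the other main cholesterol exporter, was 159, 178 and 125, then 288, 217 and 248, with ranges apart but an adjusted p of 0.15. Sterol synthesis genes did not pass, 0 of 23 in limma and 2 higher at an unadjusted p under 0.05. Without 6-week replicate 1, 6 sterol synthesis genes were called higher.

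Immunoglobulin transcripts made up another group of large rises. Igkc, the constant part of the kappa light chain, was 3.57, 5.48 and 3.08 at 6 weeks and 190.2, 45.7 and 48.2 at 22 weeks, a ratio of means of 23.4 (3.94 ± 0.94, adjusted p = 0.0043, limma). Ighm, the heavy chain of IgM, was 22.3, 29.7 and 24.5, then 249.8, 114 and 142 (2.60 ± 0.69, adjusted p = 0.0082). Igha, the heavy chain of IgA, was 2.92, 5.16 and 2.06, then 73, 17 and 12.5 (2.64 ± 0.97, adjusted p = 0.043). Jchain, which joins IgM and IgA into polymers, was 1.42, 3.84 and 1.77, then 42.1, 14 and 14 (2.74 ± 0.93, adjusted p = 0.031). All 4 were highest in 22-week replicate 1, with the other two libraries at 22 weeks still above all 6-week libraries. Reads of these genes may be shared with related immunoglobulin segments. The calls of Igha and Jchain were lost without 22-week replicate 1 and without 6-week replicate 1 or 3 (Igha also without 6-week replicate 2, Jchain also without 22-week replicate 3). Those of Igkc and Ighm held without any 1 library. With the brown adipocyte term Igkc passed (3.53, adjusted p = 0.046), while Ighm (2.26, adjusted p = 0.078), Jchain (2.14, adjusted p = 0.21) and Igha (2.18, adjusted p = 0.23) did not. Of 12 B lymphocyte markers 2 rose, near the 13.3% of all genes that did. They were Jchain and the inhibitory receptor Cd22 (4.23 ± 0.863, then 17.3 ± 4.92; 1.79 ± 0.53). The list's summed level was 13.85 to 21.49 at 6 weeks and 42.52 to 134.9 at 22 weeks. Of 14 T and NK lymphocyte markers only the cytokine receptor Il7r rose (1.72 ± 0.54, adjusted p = 0.021), a smaller share than the 13.3% of all genes. The sums of the T and NK list overlapped, 13.9 to 65.29 against 46 to 193.2. Both lists lost all their calls without 22-week replicate 1 or 6-week replicate 3, and Il7r also without 22-week replicate 3.

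Mast cell proteases were higher at 22 weeks as well. The tryptase Tpsb2 was 1.31, 1.53 and 2.68 at 6 weeks and 11.6, 10.3 and 9.79 at 22 weeks (2.05 ± 0.37, adjusted p = 0.00086). The chymases Mcpt4 (3.08 ± 0.56, then 12 ± 1.93; 1.67 ± 0.35) and Cma1 (2.89 ± 1.65, then 10.4 ± 2.42; 1.61 ± 0.47) rose too. Thus 3 of 6 mast cell genes rose, where 13.3% of all genes did. The call of Cma1 was lost without 22-week replicate 1 or 6-week replicate 2 and with the brown adipocyte term (1.38, adjusted p = 0.11). These are low levels, and the proteases have close relatives in the genome whose reads the table may share. Of 8 neutrophil genes 1 was called, near the 13.3% of all genes called higher, the iron-sequestering Lcn2 (1.78 ± 0.64, adjusted p = 0.04). It was 2.5, 9.43 and 1.31, then 23.4, 5.05 and 22, with the groups overlapping, and lost the call on leaving out any library except 6-week replicate 2 and 22-week replicate 2.

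Complement and antigen presentation genes were highest in 22-week replicate 1. Of 16 complement genes 6 rose and 1 fell, against 13.3% and 13.7% of all genes. C1qb, a subunit of the C1 complex made by macrophages, was 44.1, 62.6 and 58, then 249, 122 and 124 (1.50 ± 0.36, adjusted p = 0.0046). Properdin, Cfp, was 17.2, 26.2 and 24.8, then 97.1, 39.3 and 33.6 (1.14 ± 0.29). C3, on which all complement pathways converge, was 934, 1794 and 1058, then 3802, 1548 and 3274 and did not pass (adjusted p = 0.058). Of 9 MHC class II genes 4 rose, where 13.3% of all genes did, with a median of 1.10. H2-Ab1, which presents peptides to CD4 T cells, was 55.6, 69.7 and 70.7, then 367, 146 and 82.9 (1.33 ± 0.39, adjusted p = 0.014). The invariant chain Cd74 was 135, 188 and 212, then 769.5, 331 and 205 (1.09 ± 0.39, adjusted p = 0.041), its 22-week replicate 3 lying inside the 6-week range. Without 22-week replicate 1 there were 0 class II calls, against 4 with it, and 2 complement genes higher, against 6. The fit of the 6 libraries alone also gave 0 class II calls. The same library stood apart for interferon targets, of which 0 of 23 rose and 1 fell in limma, 2 being higher at an unadjusted p under 0.05. Irf7, a transcription factor of the interferon response, was 101 in it and 13 to 19.9 in the other 5 (0.83 ± 0.45, adjusted p = 0.17). Ifit2, the interferon target that fell, was 27.3, 32.2 and 32.3, then 30.3, 14.7 and 15.6. Of 29 chemokine and adhesion genes 5 rose, near the 13.3% of all genes, and 0 fell. They included the monocyte chemokine Ccl8 (2.5, 3.71 and 3.08, then 30.1, 6.63 and 8.69; 1.70 ± 0.62, adjusted p = 0.043). Leaving out 22-week replicate 1, 6-week replicate 1 or 6-week replicate 3 left 2 of the list called in each case, the fit of the 6 libraries alone called 1, and with the brown adipocyte term 0 passed in limma (6 higher at an unadjusted p under 0.05). Ccl8 lost its call on leaving out any library except 22-week replicate 2.

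**Figure D2:**
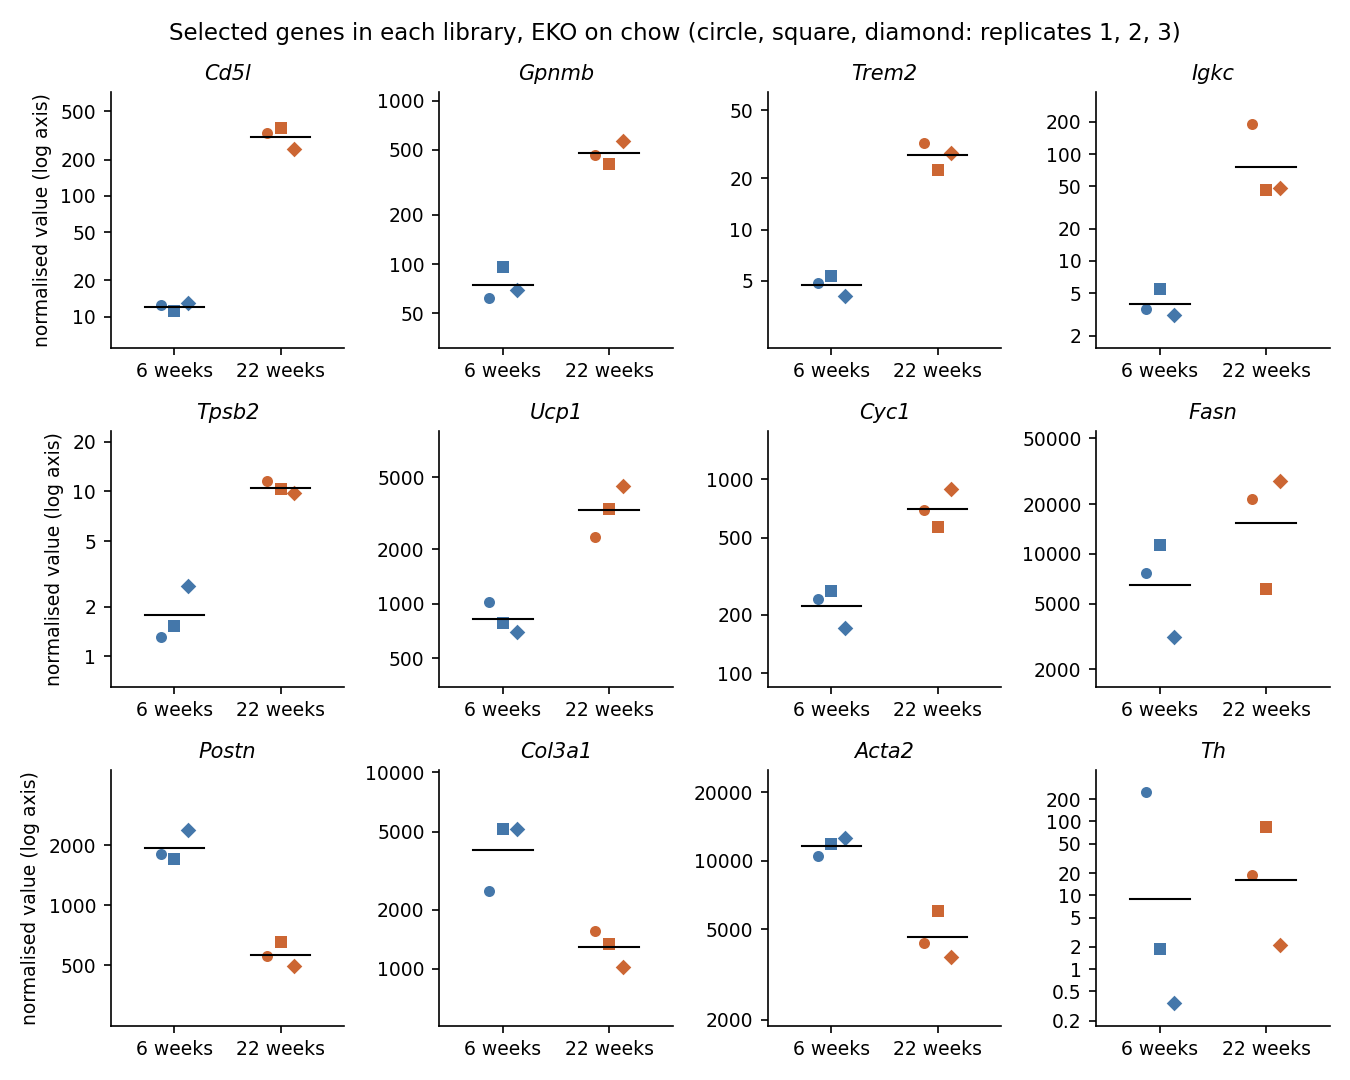
Normalised value, on a log axis, of 12 genes in the 3 libraries at 6 weeks (blue) and the 3 at 22 weeks (orange), with a line at the mean taken on the log2(value + 1) scale. The groups are apart for all genes shown except Fasn and Th, and Igkc is highest in 22-week replicate 1.

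Mitochondrial and adipocyte transcripts were higher at 22 weeks. Of 25 respiratory chain genes 22 rose, where 13.3% of all genes did, and 0 fell, with a median of 1.20. Ranges were apart and higher for 24, as were those of 22.3% of all genes. Cyc1, cytochrome c1 of complex III, was 241, 266 and 171 at 6 weeks and 697, 569 and 885 at 22 weeks (1.66 ± 0.36, adjusted p = 0.0025, limma). Cox5b, a subunit of complex IV, averaged 164 ± 42.6 and 427 ± 71.4 (1.40 ± 0.30). Of 20 genes of fatty acid oxidation 16 rose, with a median of 1.27. Etfb, which passes electrons from this pathway to the respiratory chain, was 276, 286 and 167, then 693, 600.2 and 726 (1.50 ± 0.32, adjusted p = 0.0022). Cpt1b, the muscle and brown fat form of the enzyme that admits fatty acids to mitochondria, was 201, 224 and 128, then 404, 516 and 872 (1.65 ± 0.45).

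Of 15 brown adipocyte genes 10 rose, where 13.3% of all genes did, with a median of 1.65. Without 22-week replicate 3, 4 rose, and without 6-week replicate 3, 2 did. Ucp1, the uncoupling protein of brown fat, was 1024, 787 and 698 at 6 weeks and 2334, 3350.1 and 4491 at 22 weeks (1.99 ± 0.54, adjusted p = 0.0088). Cox8b, the muscle and brown fat form of a complex IV subunit, averaged 77.6 ± 24.5 and 273 ± 54.3, and the fatty acid carrier Fabp3 53.1 ± 20.5 and 246 ± 118 (2.13 ± 0.47). Regulators of the brown fat program did not pass: Prdm16 was 93.8, 116 and 129, then 66.6, 74.6 and 71.9, with ranges apart and a call as lower in the fit of the 6 libraries alone (-0.65, adjusted p = 0.03), and Ppargc1a and the deiodinase Dio2 had differences of -0.01 ± 0.64 and -0.16 ± 0.54. Of 14 white adipocyte genes 6 rose, with a median of 1.06. The lipid droplet protein Plin1 was 293, 421 and 231, then 740.1, 642 and 1038 (1.37 ± 0.35, adjusted p = 0.007). Leptin, Lep, was 28.4, 9.27 and 3.83, then 81, 25.3 and 23.8, overlapping between groups (1.73 ± 0.63, adjusted p = 0.042). The call of Lep was lost without 22-week replicate 1 or 6-week replicate 2 or 3. Nor did Lep pass in the fit of the 6 libraries alone (adjusted p = 0.16) or with the brown adipocyte term (2.11, adjusted p = 0.069). Adiponectin, Adipoq, passed at an adjusted p of 0.049 and lost the call on leaving out any library. Of 20 fatty acid synthesis genes 5 rose, with a median of 0.95, led by the carbohydrate-responsive factor Mlxipl (152, 134 and 65.3, then 589, 199 and 401; 1.70 ± 0.44) and the triglyceride-forming Dgat2 (1.60 ± 0.47). Fasn, fatty acid synthase, was 7619.8, 11259 and 3141, then 21513, 6168 and 27747 and did not pass (adjusted p = 0.16).

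With the brown adipocyte term the respiratory chain list had 0 calls in limma (6 higher at an unadjusted p under 0.05) and a median of 0.22. Fatty acid oxidation kept 1 call and a median of 0.02. The white adipocyte and fatty acid synthesis lists had 0 calls, with 1 and 0 higher at an unadjusted p under 0.05, and medians of 0.26 and 0.09. Without 6-week replicate 3, the library of lowest brown adipocyte sum, 6 respiratory chain and 3 fatty acid oxidation genes were called higher, and without 22-week replicate 3, the library of highest sum, 9 and 4. The white adipocyte and fatty acid synthesis lists had 2 and 1 genes higher without 22-week replicate 3 and lost all calls without 6-week replicate 3.

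Contractile smooth muscle genes were lower at 22 weeks. Of 20 genes 8 fell and 0 rose, against 13.7% and 13.3% of all genes, with a median of -1.06. The ranges of 17 were apart and lower, as were those of 21.5% of all genes. Acta2, smooth muscle actin, was 10486, 11914 and 12554 at 6 weeks and 4337, 6018 and 3769 at 22 weeks (-1.33 ± 0.49, adjusted p = 0.046, limma). The integrin Itga8 was 2115, 2398 and 3187, then 778, 1051 and 730.3 (-1.59 ± 0.45, adjusted p = 0.012), and the muscle scaffold protein Ldb3 122, 146 and 198, then 62.1, 78.4 and 49 (-1.28 ± 0.38). Myocd, the cofactor that drives contractile gene expression, was 31.2, 109 and 166, then 29, 23.8 and 16.4 (-1.84 ± 0.59, adjusted p = 0.023), with 6-week replicate 1 close to the 22-week libraries. Smooth muscle myosin, Myh11, was 6408, 8362 and 9161, then 2524, 3898 and 3309 and narrowly missed the threshold (-1.30 ± 0.49, adjusted p = 0.051). Tagln, an early marker of the lineage, was 4848, 4834 and 5041, then 2245, 2752 and 2099 (adjusted p = 0.075). The fit of the 6 libraries alone called 14 of the 20 lower, but not Myocd (adjusted p = 0.086). Without 22-week replicate 1 the list had 3 calls, without 6-week replicate 2 it had 2, without 22-week replicate 3 it had 1 and without 6-week replicate 3 it had none, and Acta2 lost its call on leaving out any library except 22-week replicate 2. With the brown adipocyte term 0 genes passed, also at an unadjusted p under 0.05, and the median was -0.21.

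The genes with the largest falls had various roles. Casq1, a calcium store protein of the sarcoplasmic reticulum, was 93.2, 107 and 79.6, then 24.5, 19.9 and 12.8 (-2.27 ± 0.65, adjusted p = 0.013). It was level across the 6-week libraries, where the skeletal muscle sum was 1680 in replicate 1, 28.58 in replicate 2 and 72.37 in replicate 3. At 22 weeks that sum was 385.6, 256.4 and 83.64 in replicates 1 to 3. The part of skeletal muscle in the fall of Casq1 was not tested on its own. Filip1l was 252, 645 and 779, then 135, 158 and 103 (-1.94 ± 0.44), and Pi15, a peptidase inhibitor, 209, 233 and 283, then 54.1, 79.5 and 56.7 (-1.92 ± 0.38, adjusted p = 0.0014). Cyr61, a matricellular target of the YAP pathway, was 352, 687 and 360.1, then 115, 122 and 128 (-1.86 ± 0.60). Also among the largest falls were the ubiquitin ligase component Fbxo30 (-1.81 ± 0.39), the receptor phosphatase Ptprz1 (-1.75 ± 0.48), the G protein regulator Rgs4 (-1.71 ± 0.39) and the axon guidance factor Sema3a (-1.66 ± 0.40). Without 6-week replicate 3 the calls of Cyr61, Ptprz1, Dnajb4 and Myocd were lost, and without 22-week replicate 3 those of Casq1, Cyr61 and Myocd. Cyr61 lost its call without 22-week replicate 1 too, and Cyr61 and Myocd did without 6-week replicate 2. In the fit of the 6 libraries alone Dnajb4 (adjusted p = 0.069) and Myocd (adjusted p = 0.086) did not pass. With the brown adipocyte term the call of Pi15 held at -1.09 (adjusted p = 0.044), and the others of these genes did not pass. Casq1 was then -1.16 (adjusted p = 0.27), Filip1l -1.18 (0.086), Cyr61 -0.76 (0.44), Fbxo30 -1.04 (0.076), Ptprz1 -0.85 (0.26), Rgs4 -1.05 (0.095), Sema3a -0.71 (0.17), Dnajb4 -1.31 (0.13) and Myocd -0.73 (0.44).

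Matrix genes were next. Of 20 collagen genes 11 fell and 0 rose, against 13.7% and 13.3% of all genes, with a median of -1.0. Col3a1, a fibrillar collagen of the wall, was 2478, 5135 and 5139.8 at 6 weeks and 1564, 1334 and 1028 at 22 weeks (-1.64 ± 0.38, adjusted p = 0.0036, limma). Col1a2 went from 2339.5, 4749.8 and 4739 to 1714, 1535 and 1096 (-1.40 ± 0.37). The basement membrane chains Col4a5 (269, 413 and 472, then 96.3, 136 and 98; -1.78 ± 0.34) and Col4a3 (21.9, 37.6 and 40.6, then 7.42, 10.0 and 9.29; -1.76 ± 0.31, adjusted p = 0.0008) fell by similar amounts. In the fibrillar collagens 6-week replicate 1 lay between the other 6-week libraries and the 22-week libraries. Of 18 genes of collagen processing 1 fell, a smaller share than the 13.7% of all genes. It was the lysyl hydroxylase Plod2 (-1.08 ± 0.32, adjusted p = 0.014). The call of Plod2 was lost without replicate 3 of either duration and with the brown adipocyte term (-0.57, adjusted p = 0.27).

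Elastic fibre genes fell in 8 of 22 cases, where 13.7% of all genes fell. Fibrillin-1, Fbn1, the scaffold of elastic microfibrils, was 279.6, 677 and 663, then 198, 193 and 238 (-1.26 ± 0.36). Lox, which crosslinks elastin and collagen, was 103, 314 and 331, then 92, 67.1 and 95.6 (-1.39 ± 0.40, adjusted p = 0.013), with 6-week replicate 1 near the 22-week level. The calls of Fbn1 and Lox were lost without 6-week replicate 2 or 3. Neither passed in the fit of the 6 libraries alone (adjusted p = 0.052 and 0.083) or with the brown adipocyte term (-0.69 and -0.79, adjusted p = 0.23 for both). Elastin itself, Eln, was 2105, 7047 and 5221, then 1934, 1875 and 1899.8 and did not pass (adjusted p = 0.12), its 6-week replicate 1 lying near the 22-week level.

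Of 20 matricellular and TGF-beta response genes 8 fell, where 13.7% of all genes did, with a median of -0.77. Periostin, Postn, was 1802, 1708 and 2391, then 558, 654 and 497 (-1.78 ± 0.32, adjusted p = 0.0008), a fall seen to a like degree in every library. Tenascin-C, Tnc, was 171, 273 and 267, then 92, 113 and 49.8 (-1.51 ± 0.42), the collagen-binding Sparc 2950.3, 4605 and 4727, then 1746, 1814 and 1540.0 (-1.24 ± 0.25, adjusted p = 0.0015). The ligand Tgfb2 fell (-1.39 ± 0.35), whereas Tgfb1 was 36.6, 38 and 44.2, then 64.7, 48.4 and 41.3 (0.35 ± 0.23, adjusted p = 0.25). Ctgf, a classical TGF-beta target, was 851, 3547 and 2877, then 919.8, 790.0 and 628 and did not pass. Of 15 proteoglycan genes 6 fell, among them biglycan, Bgn (-1.18 ± 0.42, adjusted p = 0.038). The call of Bgn was lost on leaving out any library except 6-week replicate 1 and with the brown adipocyte term (-0.23, adjusted p = 0.73). Of 23 matrix proteases and inhibitors 4 were higher and 3 lower, near the shares of all genes (13.3% and 13.7%), and without 6-week replicate 3 these became 1 and 0. Besides Mmp12 and Adam8, urokinase, Plau, rose (13.5, 18 and 11.4, then 34.3, 25.3 and 21.4; 0.87 ± 0.22). The inhibitor Timp3 (-0.70 ± 0.23) and the protease Adamts1 (-1.49 ± 0.40) fell, the call of Timp3 being lost in 4 of the 6 fits that left out 1 library. Of 20 markers of modulated smooth muscle and cartilage 1 rose and 2 fell, where 13.3% and 13.7% of all genes did. Lgals3 was the one that rose, and Sparc and the proteoglycan Vcan fell. Adventitial fibroblast markers had 0 of 14 calls in limma and 0 at an unadjusted p under 0.05 in either direction. Pdgfra, the receptor that marks these cells, was 81.1, 147 and 148, then 118, 90.8 and 75.3, and the proteoglycan decorin, Dcn, 862, 1369.7 and 1676, then 898, 951 and 774.

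With the brown adipocyte term 1 collagen (Col4a5 was -0.98, adjusted p = 0.036), 1 elastic fibre, 2 matricellular and 0 proteoglycan genes were lower, with 1 proteoglycan gene lower at an unadjusted p under 0.05. The medians were -0.32, 0.03, 0.07 and -0.17. Postn was -0.95 with an adjusted p of 0.017 and Sparc -0.76 with 0.033, while Tgfb1 was called higher (0.76, adjusted p = 0.035). Col4a3, which the collagen list does not hold, was -1.19 with 0.023. Without 6-week replicate 3 these 4 lists had 3, 1, 3 and 0 genes lower, and without 6-week replicate 2 they had 5, 3, 4 and 5. Without 22-week replicate 1 they had 7, 5, 5 and 2, and without 22-week replicate 3 they had 7, 5, 4 and 2. Brown adipocyte sums and matrix levels moved in opposite directions between these groups, and the part of one in the other was not tested beyond this term.

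**Figure D3:**
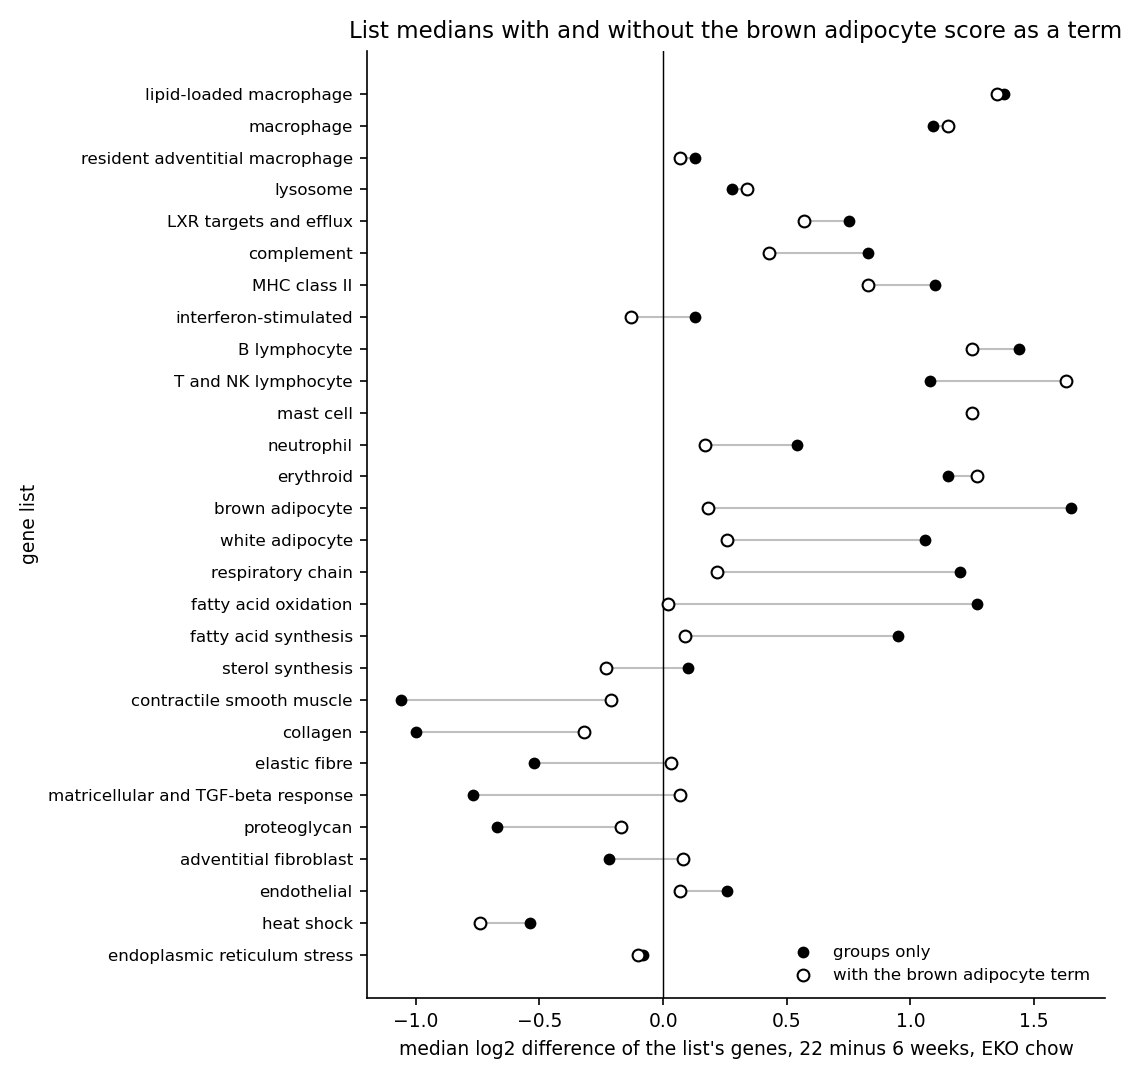
Median log2 difference, 22 minus 6 weeks, of each gene list in the fit of group means (filled) and with the brown adipocyte list mean as a term (open). The medians of the macrophage (1.09 to 1.15) and lipid-loaded macrophage (1.38 to 1.35) lists move little, while those of the respiratory chain (1.20 to 0.22) and contractile smooth muscle (-1.06 to -0.21) move toward 0.

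Other lists changed in few members. Of 23 endothelial genes 2 rose and 1 fell, smaller shares than the 13.3% and 13.7% of all genes. They were the transcription factors Sox18 (36.5, 27.2 and 28.1, then 65.7, 47.8 and 66.2; 0.94 ± 0.27), Sox17 (0.67 ± 0.25) and Erg, which fell by 0.71 ± 0.21. Single left-out libraries ended the call of Sox17 in 5 cases, of Erg in 3 and of Sox18 in 2, and with the brown adipocyte term none of the 3 passed. The defining adhesion molecules Pecam1 (-0.31 ± 0.23) and Cdh5 (0.37 ± 0.24) did not pass. Of 18 senescence and p53 target genes 4 rose and 4 fell, where 13.3% and 13.7% of all genes did. Phlda3, an inhibitor of Akt signalling, was 151, 109 and 60.9, then 435, 201 and 302 (1.56 ± 0.29, adjusted p = 0.00092, limma). The growth arrest gene Gadd45a (8.22, 5.4 and 4.8, then 13.6, 11.9 and 14.3; 1.02 ± 0.25) and the cell cycle inhibitor Cdkn1c (0.99 ± 0.26) rose too. Mdm2, which targets p53 for degradation and is itself a p53 target, fell by a small and even amount (48.8, 56.3 and 65.8, then 36.7, 40.4 and 41; -0.51 ± 0.10, adjusted p = 0.0012). The cell cycle inhibitor Cdkn1a was 34, 61.9 and 99.7, then 76, 75.6 and 102, with the groups overlapping. Of 30 cell cycle genes 1 rose, a smaller share than the 13.3% of all genes. It was Ube2c (0.95 ± 0.35, adjusted p = 0.043), a call lost on leaving out any library except 22-week replicate 3. The proliferation marker Mki67 was 7.68, 16.4 and 17.4, then 33.9, 16.7 and 6.49.

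Of 18 heat shock genes 3 fell, near the 13.7% of all genes that did, and 0 rose, with a median of -0.54. Without 22-week replicate 3 or 6-week replicate 2 the list had 1 call, without 6-week replicate 1 it had 7 and without 6-week replicate 3 none. Dnajb4 was 117, 479 and 521, then 82.8, 99.5 and 62.9 (-1.93 ± 0.51, adjusted p = 0.0075), and the chaperone Hsp90aa1 475, 653 and 810.1, then 335, 405 and 268 (-0.93 ± 0.33, adjusted p = 0.039), a call that held on leaving out 6-week replicate 1 or 22-week replicate 2 and was lost without any other library. The inducible Hspa1a was 71.6, 767 and 704, then 135, 60.1 and 43.4, high in 6-week replicates 2 and 3 only, and did not pass (-2.24 ± 0.87, adjusted p = 0.055). Of 22 endoplasmic reticulum stress genes 5 fell and 2 rose, where 13.7% and 13.3% of all genes did. The folding enzymes Pdia3 (439.8, 530.1 and 679, then 344, 367 and 295; -0.69 ± 0.14, adjusted p = 0.0016) and Hsp90b1 (-0.72 ± 0.16) fell, and asparagine synthetase, Asns, rose (1.17 ± 0.37). The call of Asns was lost without 22-week replicate 1 or 3 or 6-week replicate 2 or 3. In the fit of the 6 libraries alone 0 of the 22 genes passed in limma. The adjusted p there was 0.054 for Pdia3, 0.1 for Hsp90b1 and 0.063 for Asns. With the brown adipocyte term Asns did not pass (0.29, adjusted p = 0.61). Pdia3 (-0.5, adjusted p = 0.032) and Hsp90b1 (-0.69, adjusted p = 0.022) did. Of 22 immediate early genes 1 rose and 1 fell, smaller shares than the 13.3% and 13.7% of all genes. Cebpb, a transcription factor of myeloid and fat cells, was even within groups, 21.7, 22.5 and 20.4, then 106, 92.4 and 90.6 (2.11 ± 0.42, adjusted p = 0.0015), and kept its call with the brown adipocyte term (1.34, adjusted p = 0.044). Klf6 fell (-1.07 ± 0.24).

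Among markers of blood and nerve, Hba-a1, alpha globin, was 2008, 2347 and 2764 at 6 weeks and 6730.4, 11205 and 5079 at 22 weeks (1.63 ± 0.57, adjusted p = 0.037), 1 of 7 erythroid genes to pass, near the 13.3% of all genes called higher. Its call was lost on leaving out any library except 22-week replicate 3, and its reads may be shared with the second alpha globin gene. Ncam1 (-1.29 ± 0.42) and the myelin protein Pmp22 (-0.63 ± 0.18) fell, 2 of 15 Schwann cell and myelin genes, near the 13.7% of all genes. The call of Ncam1 was lost without replicate 1 or 3 of either duration. That of Pmp22 was lost without 22-week replicate 3 or 6-week replicate 1. With the brown adipocyte term neither passed (Ncam1 -0.32, adjusted p = 0.61, and Pmp22 -0.24, adjusted p = 0.32). Cardiac genes had 0 of 13 calls in limma and 1 lower at an unadjusted p under 0.05, with summed levels of 129.8 to 310.9, then 58.67 to 107.3. The entries Rn45s and Rn28s1, of ribosomal RNA, held identical values of 13.6, 20.6 and 8, then 93.7, 79.6 and 64.8 (2.49 ± 0.42, adjusted p = 0.00057). They cannot be told apart in the table. The tubulin Tuba8 completed the largest rises (13.6, 16.5 and 7.43, then 81.1, 40.9 and 65.8; 2.24 ± 0.48), and with the brown adipocyte term it was 0.99 (adjusted p = 0.07). Without the 2 libraries of highest nerve markers, 6-week replicate 1 and 22-week replicate 2, 3556 genes were called, 3069 of them shared with the full comparison in the same direction.

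**Figure D4:**
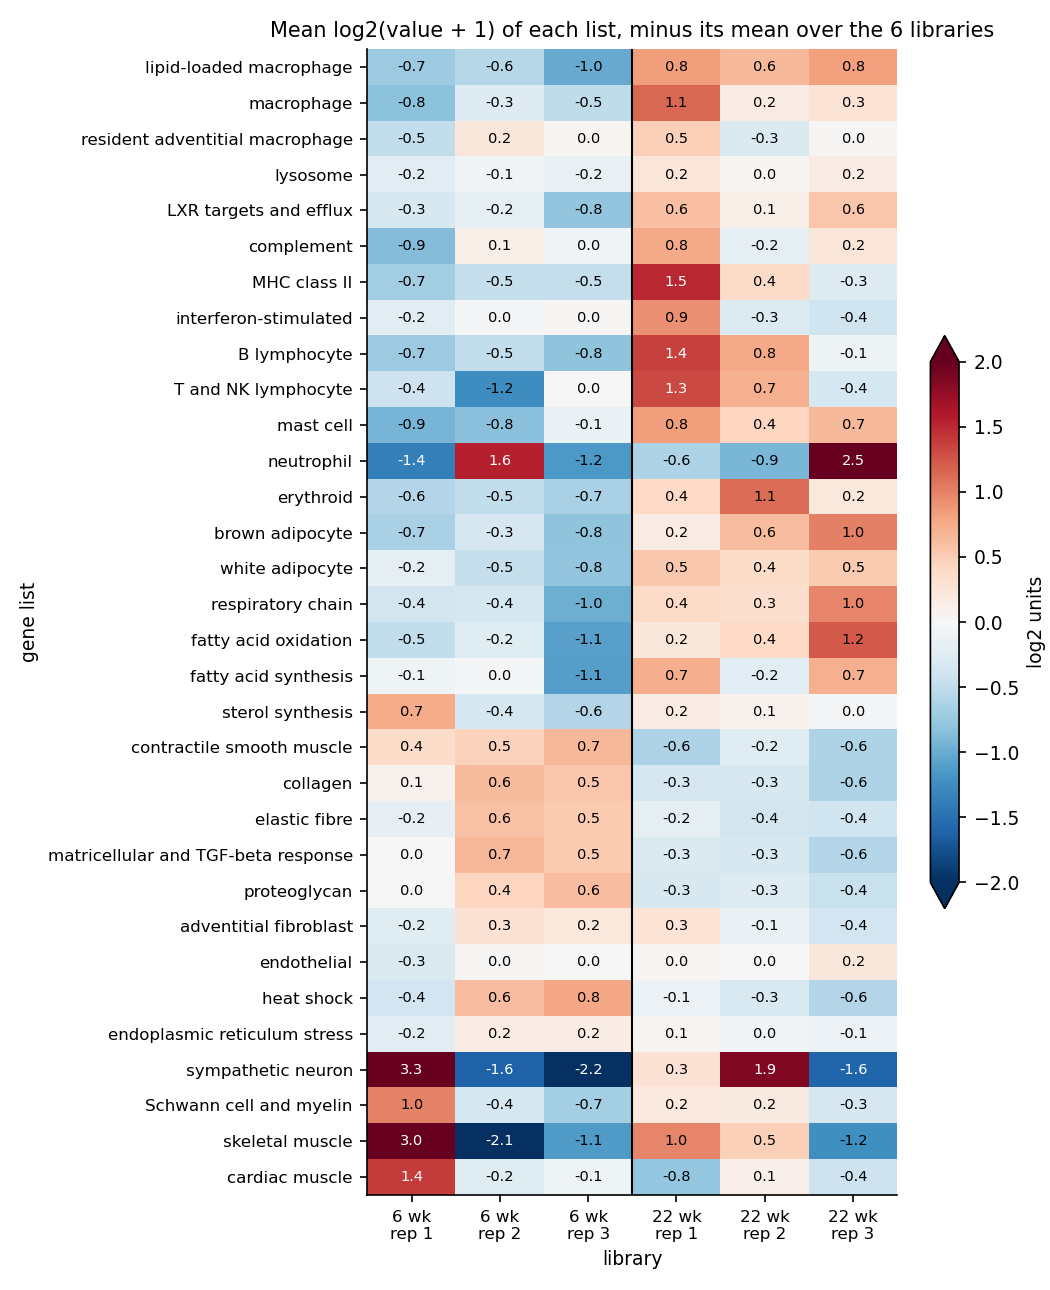
Mean log2(value + 1) of each gene list in each library, minus the list's mean over the 6 libraries, in log2 units. Nerve and skeletal muscle markers peak in 6-week replicate 1, lymphocyte, MHC class II and interferon genes in 22-week replicate 1, and neutrophil genes in 6-week replicate 2 and 22-week replicate 3, while brown adipocyte genes separate the 2 durations.

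Whether the same time on chow changed the WT aorta in the same way was tested by the difference of the 2 changes, which share no library. In WT, 17 of 14157 genes were called between 6 and 22 weeks (0.120%), 5 higher (0.0353%) and 12 lower (0.0848%). The change in EKO differed from that in WT for 2135 genes (15.1%), more positive in EKO for 1037 (7.32%) and more negative for 1098 (7.76%). With the spread estimated from these 12 libraries and no others, the difference was called for 10 genes. Macrophage markers took part, with 10 of 18 more positive in EKO, a median of 1.09 in EKO and of -0.52 in WT. Lipid-loaded macrophage genes had 3 of 18 more positive and 1 more negative in EKO, while Trem2 (2.42 ± 0.84, adjusted p = 0.052), Atp6v0d2 (2.19 ± 0.98, adjusted p = 0.12) and Mmp12 (1.69 ± 1.15, adjusted p = 0.32) did not pass. Cd68 averaged 11.2 ± 3.02 and 8.87 ± 4.25 in WT (difference of changes 2.26 ± 0.63, adjusted p = 0.021, limma), and Lyz2 166 ± 49.5 and 121 ± 54.6 (2.14 ± 0.63). Cd5l averaged 1.91 ± 0.658 and 2.52 ± 2.38 in WT, far below either EKO group (4.50 ± 1.48, adjusted p = 0.042). For Gpnmb the difference of changes was 2.37 ± 1.10 and did not pass (adjusted p = 0.14). MHC class II genes differed in 7 of 9 cases, with medians of 1.10 in EKO and -0.86 in WT. The list's mean log2(value + 1) in EKO was 3.9, 4.13 and 4.12, then 6.09, 4.97 and 4.33. Without 22-week replicate 1, 0 class II genes were called in EKO. In WT 6 were lower at an unadjusted p under 0.05 and 0 passed in limma. H2-Ab1 averaged 74.2 ± 23.4 and 36.5 ± 12.4 in WT (2.34 ± 0.55, adjusted p = 0.0082).

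For several blood, mast and fat cell genes the WT mean was lower at 22 than at 6 weeks, with no pass in WT alone for the 4 named next, where the EKO mean was higher at 22 weeks. Igkc averaged 14.6 ± 6.24 and 3.08 ± 1.96 in WT (5.93 ± 1.32, adjusted p = 0.0065) and Tpsb2 7.58 ± 4.24 and 2.52 ± 1.88 (3.33 ± 0.53, adjusted p = 0.0011). Hba-a1 averaged 4835 ± 2099 and 1388 ± 584 (3.40 ± 0.81), and 6 of 7 erythroid genes differed. Lep averaged 45.6 ± 34.1 and 7.62 ± 5.12 (4.02 ± 0.89, adjusted p = 0.0062). Respiratory chain genes were more positive in EKO in 9 of 25 cases. Cyc1 averaged 579 ± 161 and 497 ± 215 in WT, so the 6-week EKO level of 226 ± 49.5 was the lowest of these 4 groups (1.93 ± 0.51). Collagens were more negative in EKO in 7 of 20 cases. Postn averaged 725 ± 225 and 1036 ± 439 in WT, against 1967 ± 370.1 and 569 ± 79 in EKO (-2.25 ± 0.45, adjusted p = 0.0038), so the 6-week EKO level was the highest of the 4. Lox averaged 60.4 ± 16.6 and 153 ± 54.4 in WT, against 249.5 ± 127 and 84.9 ± 15.5 in EKO (-2.68 ± 0.56). Cardiac muscle genes were more negative in 6 of 13 cases, Myh6, a heart myosin, being 1321 ± 2025 in WT at 22 weeks. The mean log2(value + 1) of the cardiac list there was 7.268, 3.132 and 4.345 in replicates 1 to 3, highest by far in replicate 1. In WT at 6 weeks it was 1.943, 1.738 and 1.608.

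The 5 genes with the smallest p for this difference had small spreads within groups. Myef2, a transcriptional repressor, was 39.5, 35.4 and 37.2, then 19.3, 23.2 and 16.5 in EKO and averaged 25.7 ± 3.71, then 36.9 ± 2.01 in WT (-1.42 ± 0.18, adjusted p = 0.00056). Krit1, a protein of endothelial junctions, averaged 50.4 ± 6.7 and 34 ± 2.02 in EKO and 41.1 ± 2.88 and 54.6 ± 3.7 in WT (-0.95 ± 0.14). The SUMO protease Senp6 (-0.93 ± 0.13) and the UFM1 ligase Ufl1 (-0.87 ± 0.13) went the same way. Selenbp1, a selenium-binding protein, averaged 59.7 ± 3.69 and 87.2 ± 13.5 in EKO and 93.3 ± 15.4 and 47 ± 1.3 in WT (1.49 ± 0.22).

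On the Western Diet the same interval gave a different pattern in EKO. There 1903 genes were called (13.4%), 1482 higher (10.5%) and 421 lower (2.97%), and the change on chow differed from it for 2734 genes (19.3%), more positive on chow for 1094 (7.73%) and more negative for 1640 (11.6%). Macrophage and lipid-loaded macrophage genes had medians of 2.39 and 2.74 on the Western Diet, against 1.09 and 1.38 on chow. Of each list of 18, 5 genes were more negative on chow. Gpnmb averaged 506 ± 343 and 5464 ± 2153 on the Western Diet, against 75.4 ± 17.9 and 480.3 ± 77.9 on chow, and its difference of changes was -0.90 ± 1.10 (adjusted p = 0.62). Lysosome genes were more negative on chow in 17 of 26 cases, all 26 having risen on the Western Diet. Ctsd averaged 1739 ± 133 and 6915 ± 1908 there (-1.02 ± 0.28, adjusted p = 0.012, limma), and Asah1 96.6 ± 12 and 201 ± 36.4 (-1.47 ± 0.20, adjusted p = 9.6e-05). Plau averaged 20.1 ± 4.64 and 103 ± 33 (-1.41 ± 0.30).

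Contractile smooth muscle genes had nearly the same median on both diets, -1.06 on chow and -1.10 on the Western Diet, and 0 of 20 differed between them in limma. Collagens differed in 8 of 20 cases, all more negative on chow. Col3a1 averaged 3000.2 ± 779.7 and 4901 ± 770.1 on the Western Diet (-2.37 ± 0.54, adjusted p = 0.0044), Tnc 147 ± 34.1 and 329.9 ± 155 (-2.60 ± 0.60) and Lox 147 ± 21.4 and 293 ± 39.6 (-2.37 ± 0.56). Respiratory chain genes were more positive on chow in 21 of 25 cases, with a median of -0.41 on the Western Diet, and brown adipocyte genes in 9 of 15, with a median of -0.67. Ucp1 averaged 3357 ± 1578 and 2034 ± 1343 on the Western Diet (2.92 ± 0.76, adjusted p = 0.0096). Cebpb averaged 71.2 ± 13.1 and 27.9 ± 5.72, where on chow it rose (3.44 ± 0.60, adjusted p = 0.00088). Of the 5 genes with the smallest p, the DNA translocase Hltf (33.4 ± 2.08 and 18.8 ± 0.434 on chow, 22.9 ± 3.63 and 30.4 ± 2.44 on the Western Diet; -1.19 ± 0.14, adjusted p = 4.2e-05) and the actin nucleator Actr2 (-1.29 ± 0.16) fell on chow. Lrp12 (-1.79 ± 0.22), Tpd52 (-1.56 ± 0.20) and the low-level protease Prss46 (-2.25 ± 0.29) did not pass on chow and averaged 24.6 ± 6 and 85.7 ± 15.5, 34.4 ± 6.17 and 101 ± 11.7, and 0.487 ± 0.383 and 8.54 ± 1.75 on the Western Diet.

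**Figure D5:**
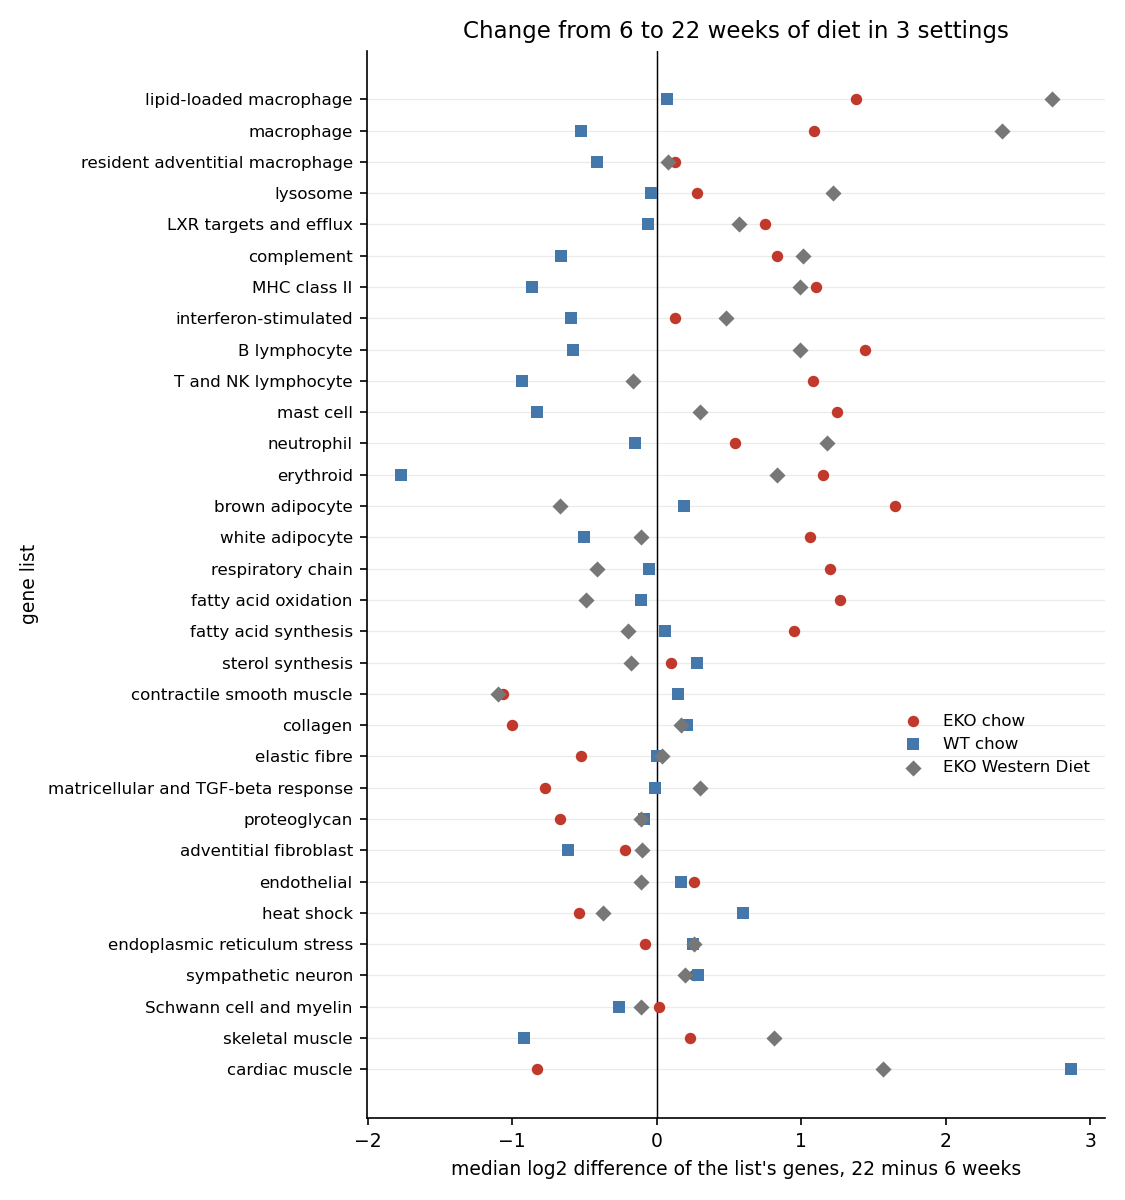
Median log2 difference, 22 minus 6 weeks, of each gene list in EKO on chow (circles), WT on chow (squares) and EKO on the Western Diet (diamonds). The macrophage and lipid-loaded macrophage medians are highest on the Western Diet, the respiratory chain median is 1.20 in EKO on chow, -0.05 in WT and -0.41 on the Western Diet, and contractile smooth muscle is at -1.06 and -1.10 in the 2 EKO settings.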

How the data were processed

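Sequencing libraries of whole mouse aorta were compared, 3 per group in the 4 groups used. The authors deposited 1 table of 14174 genes by 35 libraries holding a normalised signal per gene, whose scaling is not given in the sources used here. Bowtie 0.12.2, Bowtie2 and RSEM, and the builds mm8 and mm9, are named without roles per the submitters' processing notes. Genes carry symbols only, so no positions are given. Only 72.7% to 77.0% of low values were whole multiples of 1 read within 0.02, so no counts were recovered. Values were tested as log2(value + 1) with limma 3.58.1 in R 4.3.3 (trend, robust), in 1 fit of 12 groups over 35 libraries, two-sided, with Benjamini-Hochberg adjustment at 0.05. Genes reaching 1 in 3 or more libraries were kept, 14157 in all, and 17 were removed. The script was tested on simulated data. Named were the 14 largest rises and 14 largest falls among called genes with ranges apart and a mean log2 of at least 3, up to 4 genes of smallest p and the defining members of each list, and the 5 genes of smallest p for each difference of changes. A few genes that this rule names are not reported here. The comparison and the gene lists were chosen with earlier results of these data known. Alternatives were the fit, block, pseudocount, filter, scaling, sex and tissue terms and leaving out each library. Leaving out both libraries with high nerve markers was chosen after seeing the data. The deposited values of 1 library outside the comparison carry conflicting genotype labels (WT on the Western Diet at 22 weeks, replicate 3), and it entered the fit as titled.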

Additional observations from a re-analysis of the deposited data

Results flagged for a closer look

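The following genes changed differently in EKO on chow than in WT on chow or in EKO on the Western Diet, by the limma test of the difference itself with an adjusted p under 0.05. Values are differences of log2 changes, EKO on chow minus the other setting. They were looked up for genes named for size, for smallest p and for their list, and no test for outlying libraries was run in groups of 3. For the difference from WT, 10 genes in all were called in a fit of its own 12 libraries.

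Against WT on chow, the change in EKO was more positive for the genes that follow. The value was 4.50 for Cd5l, 5.93 for Igkc, 4.15 for Jchain and 3.64 for Ighm. It was 1.92 for Adam8, 2.58 for Hk3, 2.26 for Cd68, 2.14 for Lyz2, 2.34 for H2-Ab1 and 3.33 for Tpsb2. Ctsd had 0.92, Plau 1.38, Hba-a1 3.40, Lep 4.02, Cyc1 1.93, Selenbp1 1.49 and the identical entries Rn28s1 and Rn45s 1.93.

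Other genes had a more negative change than in WT. Casq1 had -2.93, Filip1l -2.36, Dnajb4 -2.18, Pi15 -1.95, Myocd -2.51 and Fbxo30 -2.25. Postn had -2.25, Col4a5 -2.18, Col4a3 -1.80, Col3a1 -2.07, Lox -2.68, Tnc -1.96 and Rgs4 -1.78. Smaller values belonged to Myef2 (-1.42), Krit1 (-0.95), Senp6 (-0.93), Ufl1 (-0.87), Hltf (-0.88) and Actr2 (-0.63).

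Against EKO on the Western Diet, the change on chow was more positive for Cebpb (3.44), Ucp1 (2.92), Tuba8 (2.88), Rn28s1 and Rn45s (2.42), Cyc1 (2.20), Tpsb2 (1.80) and Selenbp1 (0.82). It was more negative for Cyr61 (-2.72), Tnc (-2.60), Col3a1 (-2.37), Lox (-2.37), Pi15 (-2.23) and Postn (-1.43). Genes that rose on the Western Diet gave Prss46 -2.25, Lrp12 -1.79, Tpd52 -1.56, Asah1 -1.47, Plau -1.41, Actr2 -1.29, Hltf -1.19 and Ctsd -1.02. Myef2 had -1.05, Ufl1 -0.61, Krit1 -0.51 and Senp6 -0.46.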

How the results depend on the processing

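The count of 3829 genes stayed within 3551 and 4030 with pseudocounts of 0.1 and 5, no filter, a mean of at least 10, median-ratio rescaling, a sex term, a sympathetic neuron term and without the pair of libraries high in nerve markers, and no gene was called in the opposite direction under any alternative. It was 2436 in the fit of the 6 libraries alone (2149 shared with the full fit), 1518 with the brown adipocyte term (1107 shared) and 1563 with 4 tissue terms (1110 shared). Leaving out 1 library gave 1455 to 3805. For the difference from WT, 2135 became 10 in the fit of its 12 libraries, and leaving out 1 library gave 707 to 3360. For the difference from the Western Diet, 2734 became 1458 in the fit of its own libraries, 1701 with the brown adipocyte term and 1674 with 4 tissue terms, and leaving out 1 library gave 1230 to 3158. The cause of these moves was not tested. Of 141 named genes 110 were called, and 67 of these lost the call with the brown adipocyte term, 26 in the fit of the 6 libraries and 53 without 6-week replicate 3. The replicate block gave 3638, 2144 and 2819, with correlations of same-numbered libraries of -0.034, -0.682 and 0.266, so the numbers were not taken as pairs. Low values rest on few reads, since depth was 11100000 to 17450000 reads.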
